A study of Mus musculus with 6 samples.

Results

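The genes examined here make, take up, store and export cholesterol. They are 28 genes chosen by name (17 enzymes of the synthesis pathway, 4 genes of the SREBP regulatory system, 4 of transport and uptake, 1 of esterification and 2 efflux transporters) out of 22609 gene symbols listed in the files. All 28 were listed, and 27 of them had enough reads to be tested. The cells were primary white adipocytes grown from the stromal vascular fraction of inguinal fat of male C57BL6 mice aged 3 weeks and differentiated in culture. They carried either a mimic control, labelled as control vector (3 samples), or a miR-182-5p mimic, labelled as miR182 overexpression (3 samples). The labels name electroporation as the delivery, whereas the study's methods name a lipid reagent and a different mouse age, and neither says whether the 3 samples of a group came from separate cell preparations, so p-values measure only the spread between these samples. The comparison asks which mRNAs of cultured adipocytes change when miR-182-5p is raised.

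Cholesterol is built from acetyl-CoA through mevalonate, isoprenoid units, squalene and lanosterol. The pathway is switched on by SREBP2, a transcription factor made as a membrane protein, which SCAP escorts out of the endoplasmic reticulum when sterols are low and which INSIG proteins hold back when sterols are high. Sterols are sent out of the cell by the transporters ABCA1 and ABCG1, whose genes are classic targets of the liver X receptors (LXR), and adipocytes are known as a large store of unesterified cholesterol.

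The sequences that bear on these genes are those of the miRNA, of its possible sites in the members and of sterol-response elements in their promoters. The mature miRNA in RefSeq (GRCm38.p6, chr6:30165962-30165986, minus strand) is 25 bases long, and capitals mark its seed, bases 2 to 8. The study's methods print another mature sequence under this name, and which one the mimic carried was not tested.
miR-182-5p: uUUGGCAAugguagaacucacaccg
The 7-base match to the seed, TTGCCAA, occurred in the longest annotated 3′-UTR of 3 of the 27 members tested (11.1%), against 1569 of 12516 tested genes with an annotated 3′-UTR (12.5%). The 3 were Sc5d (chr9:42254331-42254359, minus strand), Insig1 (chr5:28078467-28078495, plus strand) and Tm7sf2 (chr19:6066194-6066222, minus strand), each with 1 match, shown in capitals in its surroundings (GRCm38, GENCODE M21).
Sc5d: tgaagggaataaTTGCCAAgtacttaaat
Insig1: tgaaggatgcttTTGCCAAtagttatagc
Tm7sf2: tcattcattcatTTGCCAAtatgttgctg
None of the 3 had an A after the match, the base that makes an 8-base site. The Tm7sf2 match is at base 241 of the 264-base 3′-UTR of a transcript that ends inside the gene, which runs on to base 6062821. Whether these cells make this transcript was not tested.

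RefSeq promoter windows, from 250 bases before to 50 after a transcription start, were at hand for 21 of the 28 genes (27 windows). The core of the sterol-response element was searched on both strands as TCACNCCA, which 4.36% of all 32851 windows held, and as the longer TCACNCCAC, which contains it and which 1.24% held. Among the members the shorter core lay in the windows of Hmgcs1 (chr13:119690203-119690232) and of Srebf2 itself (chr15:82147096-82147125), both on the plus strand, shown with the core in capitals.
Hmgcs1: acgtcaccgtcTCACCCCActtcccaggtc
Srebf2: atgacgcaccaTCACCCCAtgagccgcttc
The longer form lay in 1 window, that of Hmgcs1. CCAAT, the letters of the NF-Y box, lay in 18 of the 27 member windows (66.7%) against 37.4% of all windows, and GGGCGG, an Sp1 box, in 23 (85.2%) against 35.7%. All windows were taken whether or not their gene was tested here. The share among windows of tested genes was not computed, so whether these differences are particular to cholesterol genes is not known. A match of letters does not show that a factor binds there, and no match says only that these letters are not in the window.

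Reads counted on genes ranged from 25869810 to 28796712 per sample. Adipocyte markers were abundant and mostly lower with the mimic. At an adjusted p under 0.05, 7 of 10 fell, Fabp4 by the most (0.68 on the log2 scale), and Lep rose. Over all genes tested 23.5% fell and 23.2% rose. The summed level of the adipocyte markers was 6913 to 7266 CPM (reads scaled to library size with edgeR's TMM factors) in the controls and 4780.5 to 5425 in the mimic samples. In RNA from a whole culture, fewer adipocytes and less of these mRNAs per adipocyte cannot be told apart. Of 8 preadipocyte or fibroblast markers, 7 were tested, 4 fell and Thy1 rose. Pdgfra fell from 449.5 ± 4.97 to 248 ± 7.54 CPM and Cd34 from 17.7 ± 0.923 to 6.14 ± 0.338 CPM (SD, n = 3), while the summed level, most of it Col1a1, was 21001 to 22139.5 against 20121 to 20988 CPM. Macrophage markers were 11 names for 10 genes, as Adgre1 is the newer name of Emr1. All 10 were listed and 4 were tested. Macrophage markers summed to 14.6 to 15.8 CPM in the controls and 12.4 to 15.96 with the mimic, with Emr1 at no more than 0.206 CPM and Lyz2 lower. Endothelial markers summed to 8.13 to 9.27 against 5.09 to 5.74 CPM (Tek lower), muscle markers to 25.5 to 27.0 against 35.6 to 39.2 CPM (Acta1 higher, Myh4 and Ckm at 0), and erythroid markers to 0.651 to 0.746 against 0.137 to 0.708 CPM (Hba-a1 and Hbb-b1 at 0). Mimic replicate 1 stood somewhat apart from the other two mimic samples, with a chi-square of its counts per degree of freedom of 5.01 and 7.18 against 2.13 between replicates 2 and 3. The part of these markers in the results that follow was not tested.

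With the miR-182-5p mimic, more genes of cholesterol synthesis rose than fell, each by less than 1.5-fold, and the efflux transporters moved in opposite directions. Of the 27 genes tested, 10 rose and 5 fell at an adjusted p under 0.05 in edgeR's quasi-likelihood test (55.6%, against 46.7% of all 13117 genes tested). Among all genes 23.2% rose and 23.5% fell. No cholesterol gene reached a 1.5-fold change, the cutoff the study states, which together with the adjusted p was passed by 7.45% of all genes (1.97% higher and 5.48% lower). The count of 0 was the same at an unadjusted p, with DESeq2 and with limma-voom. The fitted log2 changes (mimic minus control) lay between -0.40 (Sc5d) and 0.53 (Idi1), with a median of 0.02, against a median of -0.00434 over all genes tested.

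In mimic and control samples alike, the levels of the members spanned a wide range. On the scale of CPM per kilobase of exon, the lysosomal sterol carrier gene Npc2 was the highest in the controls (227 ± 3.47, SD, n = 3). Insig1 (87.6 ± 3.04), the HDL receptor gene Scarb1 (72.3 ± 1.63) and Abca1 (45.1 ± 0.656) followed. Abca1 thus stood at several times the level per length of Abcg1 (7.74 ± 0.301). The tested enzymes of synthesis ran from 40.1 for Nsdhl down to 6.79 for Tm7sf2, with Idi1 lower still at 0.829 ± 0.0242. Sc5d (34.7 ± 1.78) and Cyp51 (34.6 ± 0.111) stood next to each other in the controls. Such places rest on the exon lengths used, which the SD does not cover. Exons of protein-coding transcripts gave 4866 bases for Sc5d, 3931 for Cyp51 and 2705 for Scarb1. Exons of all transcripts hold 4866, 4415 and 8500 bases, so the places of Cyp51 and Scarb1 depend on this choice.

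**Figure D1:**
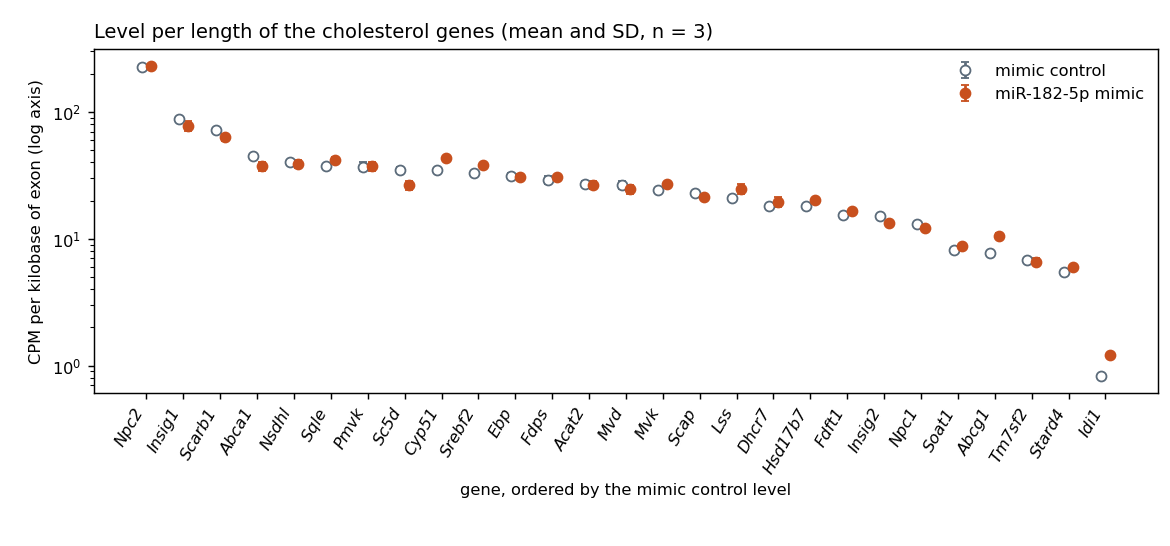
Mean CPM per kilobase of exon (log axis) of the 27 cholesterol genes tested, in mimic control (open) and miR-182-5p mimic samples (filled), with SD bars (n = 3 each) and genes ordered by the control level. Npc2 is highest at 227 and Idi1 lowest at 0.829 in the controls. By the exon lengths used, Sc5d and Cyp51 are at 34.7 and 34.6 in the controls and at 26.4 and 43.3 with the mimic.

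The first steps of the pathway lead from acetyl-CoA to farnesyl diphosphate. Of 7 genes, 6 were tested, 2 rose and 4 did not pass (33.3% passed, against 46.7% of all genes tested). Mvk, which encodes mevalonate kinase, had 48.6, 46.6 and 48.6 CPM in mimic control replicates 1 to 3 and 54.0, 52.0 and 54.8 in mimic replicates 1 to 3. The groups did not overlap, and the log2 change was 0.16 (SE, the standard error of the fit, 0.041, adjusted p = 0.00549). Idi1 encodes the isomerase that interconverts the isoprenoid units. Its counts were 63, 68 and 68 reads in the controls and 109, 97 and 105 with the mimic, or 2.56 ± 0.0748 against 3.71 ± 0.0269 CPM (SD, n = 3 each). This was the largest log2 change among the members (0.53, SE 0.12, 95% interval 0.27 to 0.80, adjusted p = 0.00265), on the fewest reads, and its interval includes the 1.5-fold line at 0.585. Of the 50-base stretches in annotated Idi1 transcripts, 17.7% also occur in a transcript of another gene, all of them in Gm13502, and 323 of its exon bases lie opposite Gm48574 on the other strand, which leaves its count uncertain.

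Acat2 (the thiolase that joins acetyl-CoA), Pmvk, Mvd and Fdps (the next kinase, the decarboxylase and farnesyl diphosphate synthase) did not pass. Their 95% intervals all lay within -0.25 and 0.19 on the log2 scale, with the control and mimic samples overlapping for each. Acat2 shares 39.1% of its 50-base stretches with its neighbour Acat3 and Fdps shares 26.2%, mainly with Gm43738, so their counts are uncertain. Hmgcs1, the synthase ahead of mevalonate whose promoter core is printed above, was listed with 0 reads in all 6 samples. A count of 0 allows up to 3 reads in a library, or 0.103 to 0.118 CPM. Ambiguous reads and those without a unique position were kept apart from genes, and 5227 of the 22609 symbols stood at 0 throughout, so this row says nothing on the expression of Hmgcs1.

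The steps from squalene to cholesterol held the smallest p-value within synthesis. Of 10 genes, 4 rose, 1 fell and 5 did not pass (50% passed, against 46.7% of all genes tested). Cyp51 (chromosome 5, 4081145 to 4104746, minus strand), the lanosterol 14-alpha-demethylase, had 136.4, 135.8 and 135.6 CPM in the controls and 168, 173 and 170.4 with the mimic. All mimic samples lay far above the tightly grouped controls. The rise was 1.25-fold (log2 change 0.33, SE 0.027, adjusted p = 3.51e-07), which ranked at 447 of 13117 genes by p. Of its exon bases, 166 are shared with Akap9 on the opposite strand, and whether counting used the strand is not given in the sources used here.

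Lss, Sqle and Hsd17b7 rose less. Lss encodes the enzyme that closes squalene epoxide into lanosterol. It had 102, 106 and 103 CPM in the controls and 111, 123 and 131 with the mimic (log2 change 0.23, SE 0.048, adjusted p = 0.00125). Of its exon bases, 381 are shared with an antisense gene. Its mimic samples were spread more widely than its controls, with replicate 1 the lowest. Sqle encodes squalene epoxidase, a rate-limiting step. Its mean level of 104 ± 1.80 CPM in the controls (SD, n = 3) rose to 116 ± 6.38, or by 0.17 in log2 (SE 0.038, adjusted p = 0.00264). Hsd17b7, a sterol ketoreductase of C4 demethylation, rose by the same log2 change of 0.17 (SE 0.035, adjusted p = 0.00116). In none of the 3 did the control and mimic samples overlap.

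Sc5d went the other way. It encodes lathosterol 5-desaturase, which acts shortly before the last reduction to cholesterol, and lies on chromosome 9 (42251595 to 42264256, minus strand). It had 167, 178 and 162 CPM in the controls and 116, 134.7 and 134.7 with the mimic, with no overlap between the groups and mimic replicate 1 the lowest. It fell 1.32-fold (log2 change -0.40, SE 0.052, adjusted p = 2.72e-05). Like Insig1 and Tm7sf2, it has a TTGCCAA match, here at base 995 of its 3747-base 3′-UTR. Whether the match bears on the fall was not tested. Within each sample, which needs no scaling of libraries, Cyp51 had 81.9, 76.1 and 83.9 reads per 100 Sc5d reads in the controls and 145, 128 and 126 with the mimic. Here and below, the pairs set against each other within samples join a gene that rose with one that fell. Their ratios restate those changes and are no separate support.

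Fdft1 (squalene synthase), Tm7sf2, Nsdhl, Ebp and Dhcr7 (sterol reductases, a dehydrogenase and an isomerase) did not pass. Fdft1 had no overlap between its groups, but its log2 change of 0.09 (95% interval 0.0000796 to 0.18) had an adjusted p of 0.0939, and 774 of its exon bases are shared with Ctsb on the opposite strand. Tm7sf2, whose seed match lies in a transcript that ends inside the gene, had a log2 change of -0.04 (95% interval -0.19 to 0.10) and overlapping groups. Of its exon bases, 532 are shared with Vps51 on the same strand, which leaves its count uncertain. The intervals of Nsdhl, Ebp and Dhcr7 lay between -0.15 and 0.23.

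Over the 16 synthesis genes tested, 6 rose and 1 fell, and the median log2 change was 0.08. The share that passed was 43.8%, against 46.7% of all genes tested, of which 23.2% rose and 23.5% fell. Mimic samples lay above all controls for 7 of the 16 and below them for 1, where over all 13117 genes tested the shares were 27.3% and 27.5%. The samples of the mimic group were not alike in this: relative to each gene's control mean, the median log2 difference was -0.00112 in mimic replicate 1, 0.0864 in replicate 2 and 0.14 in replicate 3, while the controls ran from -0.0371 to 0.0277. The median was 0.05 without mimic replicate 3 and 0.05 without control replicate 3, and 0.12 without mimic replicate 1. Mimic replicate 1 also had the lowest summed adipocyte markers, 4780.5 CPM.

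**Figure D2:**
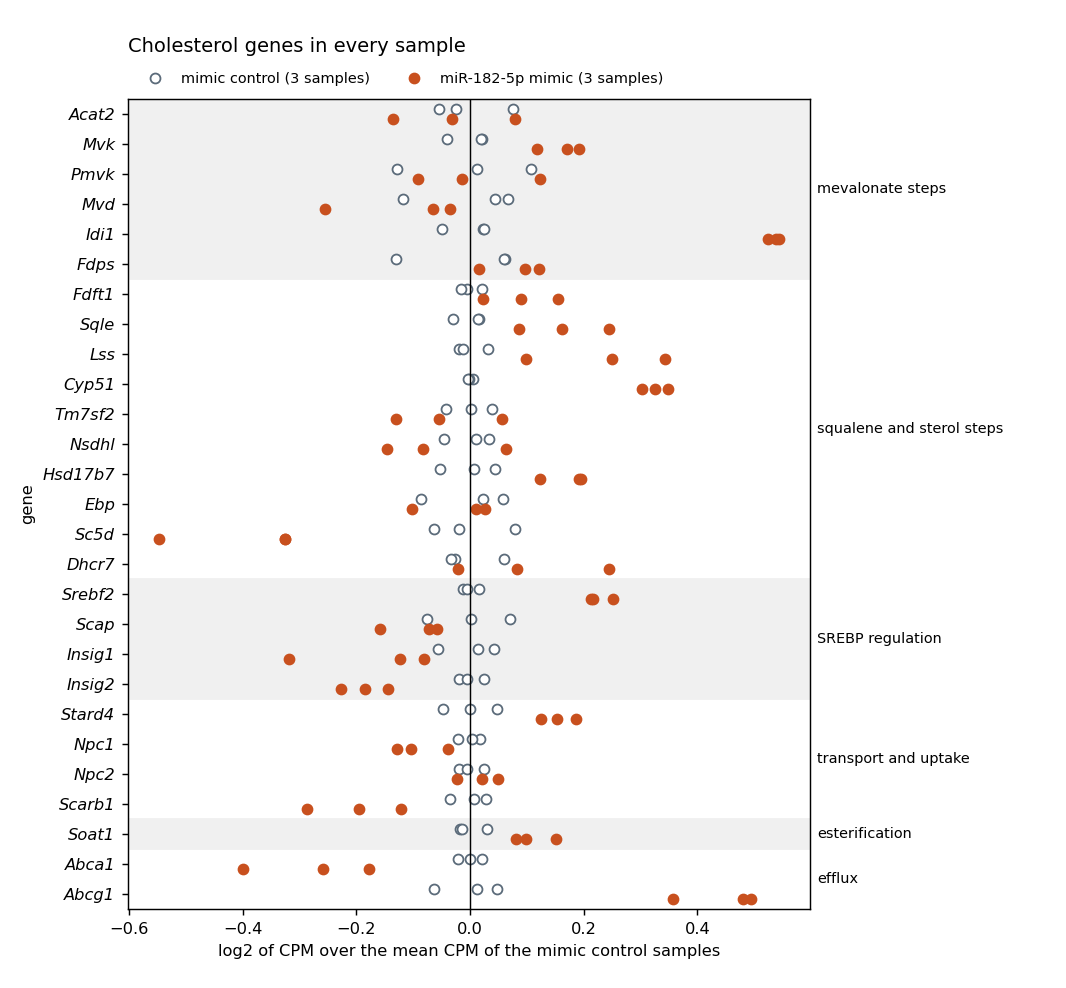
Each sample's CPM of the 27 cholesterol genes tested, as log2 of its ratio to the mean of the 3 mimic control samples, with mimic control in open and miR-182-5p mimic in filled circles and genes grouped by role in pathway order. Mimic circles lie to the right of all controls for 11 genes, among them Idi1, Cyp51, Srebf2 and Abcg1, and to the left for 6, among them Sc5d, Insig1, Insig2, Scarb1 and Abca1. Over all genes tested, mimic samples lay above all controls for 27.3% and below them for 27.5%.

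Among the 4 members of the SREBP system, Srebf2, which encodes SREBP2, rose, both Insig genes fell, and Scap did not pass. Outside the members, Srebf1, which encodes SREBP1, fell with the Insig genes (log2 change -0.17, adjusted p = 0.00272). Its level per length in the controls was 195, against 32.8 for Srebf2. Of the genes of the SREBP proteases, Mbtps2 rose (0.45, adjusted p = 3.74e-05) and Mbtps1 did not pass. Srebf2 (chromosome 15, 82147181 to 82205379, plus strand) had 170.5, 174 and 171 CPM in the controls and 199.8, 199.2 and 205 with the mimic. The groups were well apart, with a log2 change of 0.23 (SE 0.027, adjusted p = 1.1e-05). Insig1 (chromosome 5, 28071363 to 28078662, plus strand), itself a target of SREBPs, had 238, 243 and 227 CPM in the controls and 189, 217 and 223 with the mimic. Its groups came close to each other, the log2 change was -0.17 (SE 0.049, adjusted p = 0.011), and without mimic control replicate 2 the adjusted p was 0.0561. Without mimic replicate 1, its lowest sample, the log2 change was -0.10 (adjusted p = 0.0191). Insig2 had 45.1, 46.5 and 45.6 CPM in the controls and 40.2, 41.3 and 39.0 with the mimic (log2 change -0.19, SE 0.043, adjusted p = 0.00293). Insig2 has no TTGCCAA in its 3′-UTR, while Insig1 has 1, at base 1659 of 1842. Whether that match bears on the fall of Insig1 was not tested. Scap had a log2 change of -0.10 (95% interval -0.18 to -0.00932, adjusted p = 0.0654), with overlapping groups, and 985 of its exon bases are shared with a gene on the opposite strand. Per 100 reads of Insig1, Srebf2 had 72.8 ± 2.27 reads in the controls and 96.3 ± 7.92 with the mimic (SD, n = 3 each).

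Among genes of uptake and movement inside the cell, Scarb1 fell, Stard4 rose, and the Niemann-Pick genes did not pass. Scarb1, which encodes the receptor that takes cholesteryl ester from HDL, had 197, 199 and 191 CPM in the controls and 160, 171 and 179.9 with the mimic. The highest mimic sample stayed below the lowest control, and the log2 change was -0.20 (SE 0.038, adjusted p = 0.000627). Stard4, a cytosolic sterol carrier, rose from 28.2 ± 0.918 to 31.4 ± 0.682 CPM (SD, n = 3 each; log2 change 0.15, adjusted p = 0.0198). This call was lost without mimic control replicate 1 (adjusted p = 0.0698), control replicate 3 (0.0516) or mimic replicate 2 (0.0626). Npc1 and Npc2 carry cholesterol out of the lysosome. Npc2, the most abundant member, had a log2 change of 0.02 with a narrow 95% interval of -0.05 to 0.08, and Npc1 one of -0.09 (interval -0.17 to -0.00999, adjusted p = 0.0619, no overlap between the groups). Of the exon bases of Npc1, 601 are shared with genes on the opposite strand.

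Soat1 encodes the acyltransferase that turns free cholesterol into the esters kept in lipid droplets. Its mean level of 68.0 ± 1.27 CPM in the controls (SD, n = 3) rose to 73.4 ± 1.87, or by 0.11 in log2 (SE 0.036, adjusted p = 0.0206). The change was small and its call was lost without control replicate 1 (adjusted p = 0.0663), control replicate 3 (0.0682) or mimic replicate 1 (0.062).

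The efflux transporters changed in opposite directions. Abca1 (chromosome 4, 53030787 to 53159895, minus strand), which loads lipid onto lipid-poor apolipoprotein A-I, had 456, 469.9 and 463 CPM in the controls and 351, 387 and 409.6 with the mimic. All mimic samples lay below the controls but were spread widely, with replicate 1 the lowest, and Abca1 fell 1.21-fold (log2 change -0.28, SE 0.044, adjusted p = 0.000137). Abcg1 (chromosome 17, 31057675 to 31117988, plus strand), which exports sterol toward mature HDL, had 50.7, 54.7 and 53.4 CPM in the controls and 67.8, 74.5 and 73.8 with the mimic. It rose 1.36-fold (log2 change 0.44, SE 0.046, adjusted p = 2.53e-06), the second largest rise among the members after Idi1. In reads within a sample, Abcg1 had 11.1, 11.6 and 11.5 reads per 100 of Abca1 in the controls and 19.3, 19.3 and 18.0 with the mimic. Set against synthesis, efflux thus had 1 gene up and 1 down, so that its median of 0.08 (log2; 0.14 without mimic replicate 1 and 0.05 without mimic replicate 3) describes neither gene.

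**Figure D3:**
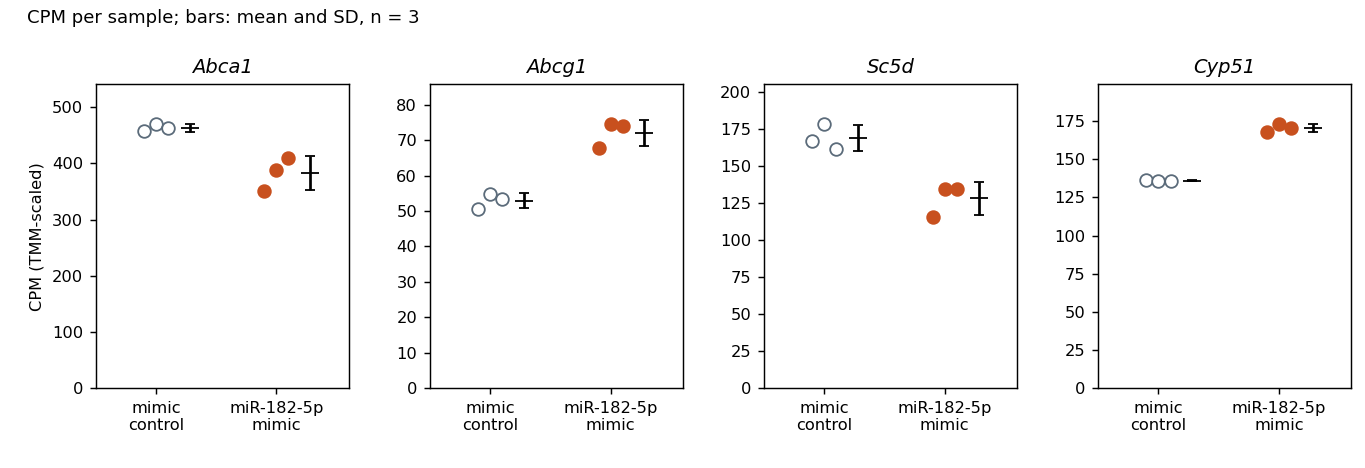
CPM in each of the 3 mimic control (open) and 3 miR-182-5p mimic samples (filled) for Abca1, Abcg1, Sc5d and Cyp51, each on an axis from 0, with the mean and SD beside the points. Abca1 and Sc5d fell from 463 to 383 and from 169 to 128 CPM, while Abcg1 and Cyp51 rose from 52.9 to 72.1 and from 136 to 170.4 CPM, without overlap in any of the 4.

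**Figure D4:**
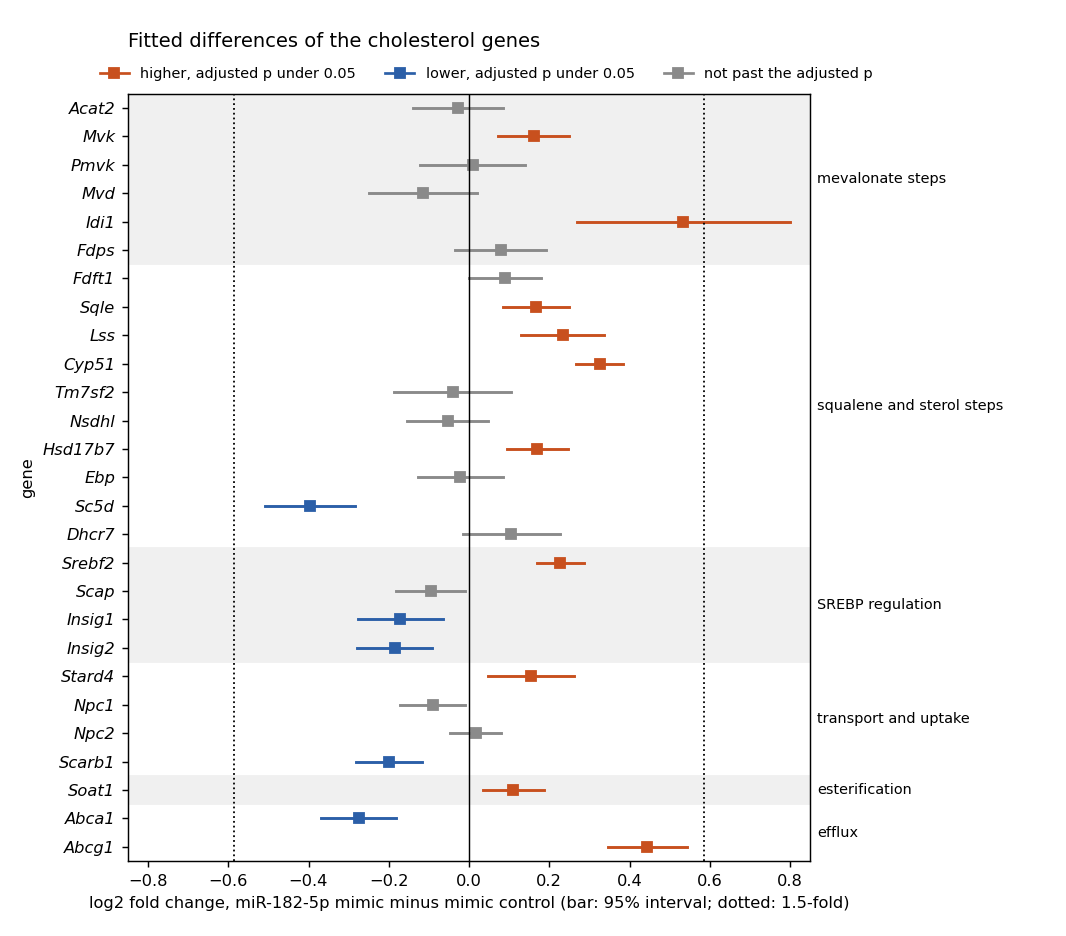
Log2 changes of the 27 genes (miR-182-5p mimic minus mimic control) from edgeR with 95% intervals, in orange where higher and blue where lower at an adjusted p under 0.05, and grey otherwise. No estimate reaches the dotted 1.5-fold lines at 0.585, and only the interval of Idi1 crosses them.

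Further genes of sterol handling were taken from a list of 46 names, of which 44 were tested, 14 rose and 13 fell (61.4% passed, against 46.7% of all genes tested). Of these, 2 rose and 2 fell by at least 1.5-fold, where the shares over all genes were 1.97% and 5.48%. Nr1h3, which encodes LXR-alpha, fell 2.19-fold, from 59.8 ± 2.83 to 27.2 ± 2.42 CPM (log2 change -1.13, SE 0.060, adjusted p = 3.14e-09). Cyp7b1 encodes the hydroxylase that breaks down 25- and 27-hydroxycholesterol and fell from 53.8 ± 4.75 to 27.99 ± 0.344 CPM (log2 change -0.94). Ch25h, whose enzyme makes 25-hydroxycholesterol, rose (log2 change 0.70, SE 0.0999, adjusted p = 5.25e-05). Mylip, an LXR target encoding a ligase that removes lipoprotein receptors, rose from 31.7 ± 0.700 to 48.9 ± 1.91 CPM (SD, n = 3, here and above). The next by p were Sc4mol (now Msmo1), the C4 sterol methyl oxidase of the synthesis pathway, at a log2 change of 0.49, the mitochondrial citrate carrier gene Slc25a1 (-0.39), and Gramd1a and Erlin2, genes of sterol transfer and of reductase degradation in the endoplasmic reticulum (0.32 and 0.23).

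Of 12 LXR target genes, Abca1 and Abcg1 among them, 2 rose and 7 fell, with a median log2 change of -0.17 (over all genes tested 23.2% rose and 23.5% fell, with a median of -0.00434). Without these 2 members, 1 rose and 6 fell of 10. Lpcat3, a phospholipid-remodelling enzyme, fell by 0.48 on the log2 scale, Lpl by 0.47 and Smpdl3a by 0.40, while Mylip and Abcg1 rose. Nr1h3, Mylip and Srebf1 are both on this list and on that of sterol handling, so the counts of these lists overlap.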

How the data were processed

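The 6 samples were poly(A) RNA libraries prepared with a stranded kit. What the authors deposited are untransformed read counts, 1 list of gene symbols per sample; the submitters' processing notes name bcl2fastq, TopHat2, HTSeq and the build mm9, without versions. The annotation and the strand setting of counting are not given in the sources used here. Counts were used as deposited, without the 5 tally lines, which hold 12.7% to 13.0% (no feature) and 0.652% to 0.667% (ambiguous) of uniquely placed reads and, apart from these, 19363264 to 21673840 alignments that are not unique.

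Differences were tested over 13117 genes in R 4.3.3 with edgeR 4.0.16 (TMM, filterByExpr at its minimum count of 10, then glmQLFit with glmQLFTest, two-sided, no block) and Benjamini-Hochberg adjustment over all of them. A gene passed at an adjusted p under 0.05. Standard errors are the log2 fold change over the square root of F. An exact permutation test of 3 against 3 samples cannot go below 0.1, so none was used. Coordinates, exon lengths (merged exons of protein-coding transcripts) and 3′-UTRs come from GENCODE M21 on GRCm38, a later build than that of the counts, and were used for names, lengths and sequence only; miRNA and promoter sequences come from RefSeq GRCm38.p6. Of 22609 symbols, 20284 matched by symbol and 1926 through an older symbol. Lengths of another annotation make levels per kilobase approximate.

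On simulated counts for 13117 genes, 123 of 200 genes changed by 0.3 and 185 of 200 changed by 1 (log2) were recovered, with 9 and 7 false calls. Far more genes, 6124, passed the adjusted p in the real counts, so the recovered shares do not carry over to them. Changes smaller than 0.3, which many members had, were not simulated. The alternatives were DESeq2 1.42.0, limma-voom (limma 3.58.1), other size factors, other filters, other fold cutoffs, a replicate block and leaving out each sample. Same-numbered samples did not deviate together (correlations -0.185, -0.0436 and -0.0785). All 28 members are named. Of the lists of other pathway genes, LXR targets and lipogenic genes, those past 1.5-fold are named and then the 4 with the smallest p. Srebf1, Mbtps1 and Mbtps2 of the pathway list are named besides, with the SREBP members. Scd1, Scd2 and Acss2 are named only as shared between lists. Marker genes named were chosen after their values were seen. The members, lists and tests were chosen with earlier results of these data known. Tables and figures were made with Python 3.11.15, pandas 2.3.3, numpy 2.4.6 and matplotlib 3.10.9.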

Additional observations from a re-analysis of the deposited data

How the results depend on the processing

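Of the 15 cholesterol genes past the adjusted p, 12 kept direction and side of the threshold in all 13 alternative fits. Insig1, Stard4 and Soat1 were each lost without 1 to 3 of the libraries, as given with their values. Of the 12 genes that did not pass, 6 passed in an alternative: Scap and Npc1 with upper-quartile factors (adjusted p = 0.0421 and 0.039), and Scap without control replicate 2 (0.0208), Npc1 without mimic replicate 2 (0.0483), Mvd without control replicate 3 (0.048), Nsdhl without mimic replicate 3 (0.0392), and Fdft1 and Dhcr7 without mimic replicate 1 (0.0209 and 0.00963). No value among the 351 reversed a called direction. Leaving out each sample gave 8 to 11 genes higher and 5 to 6 lower, and upper-quartile factors gave 10 and 7.

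Without a fold cutoff, 6124 genes of all tested, 10 members higher and 5 lower are called, and with a 2-fold cutoff 280 genes of all tested, against 977, 0 and 0 with the 1.5-fold cutoff. Calls over all genes were 902 to 1011 with a sample left out. With the replicate block 925 genes were called, the counts of members past the adjusted p stayed at 10 and 5, and no member's call changed. The numbers come from the labels only, and the samples did not deviate together by number, so the block is not a pairing known from the design.

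The median log2 fold change of the synthesis genes ranged from 0.05 to 0.12 and that of the efflux pair from 0.05 to 0.14 with a sample left out. The median of all genes moved from -0.00434 to -0.0163 with upper-quartile factors. Depth limits Idi1 most, with 63 to 109 reads a sample.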

Other observations

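Genes of fatty acid synthesis that SREBP1 is known to drive were mostly lower with the mimic. Of 16 such genes, 11 fell and 0 rose in edgeR (0 also at an unadjusted p, with DESeq2 and with limma-voom), with a median log2 change of -0.21, where over all genes tested 23.5% fell and 23.2% rose. Thrsp, which encodes the lipogenic factor Spot 14, fell 2.40-fold, from 611 ± 36.4 to 255 ± 31.6 CPM (SD, n = 3 each). Fasn, the fatty acid synthase gene, fell 1.58-fold, from 9132 ± 485 to 5788 ± 830.5 CPM, and Me1, which encodes malic enzyme, fell 1.54-fold. Acly, the source of cytosolic acetyl-CoA for fatty acids and sterols alike, fell by 0.55 on the log2 scale (adjusted p = 3.51e-05), and Gpam, Elovl6 and Fads1 fell by 0.34, 0.36 and 0.18. Scd1 and Scd2 of this list are also among the LXR targets, and Acly and Acss2 among the genes of sterol handling, so the counts overlap. The difference between this list and the synthesis genes was not tested. Adipocyte markers fell alongside (7 of 10), and their part in these values was not tested.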
